A study of Mus musculus with 6 samples.

Results

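The 10 genes described here are core transcription factors and feedback genes of the integrated stress response, 10 of the 52636 genes in the deposited tables. They are Atf4, Ddit3, Atf3, Atf5 and Cebpg, which encode transcription factors, Nupr1, a transcriptional co-regulator, Trib3, a pseudokinase, Chac1, an enzyme, and Ppp1r15a and Ppp1r15b, subunits of a phosphatase. They were chosen by name for their roles, with their differences between the 2 groups of the study already known, so their levels are given as a description, with no p-value, and support nothing beyond themselves. Whether a member passed the threshold applied to all genes is stated as part of that description and is no independent test. All 10 were found by symbol. The cells were RAW264.7, a macrophage line from BALB/c mice kept in high-glucose medium with serum, penicillin and streptomycin, and both groups were measured by RNA sequencing at 24 h. The 3 C2S libraries came from cells given an extract named C2S at 150 µg/ml, and the 3 PM_control libraries from cells given none of it. What C2S and PM stand for is not in the labels, nor whether the replicates of a group were separate cultures, so SDs, SEs and p-values cover only the spread among these libraries, possibly a technical one.

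The integrated stress response is a common output of the eIF2α kinases, which sense unfolded protein in the endoplasmic reticulum, missing amino acids, heme shortage or double-stranded RNA. Phosphorylated eIF2α lowers protein synthesis in general while a few messengers with upstream start codons, that of ATF4 among them, are translated more. ATF4 then induces CHOP (the product of Ddit3), ATF3, TRIB3, CHAC1 and GADD34 (the product of Ppp1r15a), and GADD34 brings protein phosphatase 1 to eIF2α and so closes a feedback loop.

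Total estimated counts ran from 8594485 to 10491307 in the C2S libraries and from 9149574 to 10665869 in the PM_control libraries, and 3 counts, taken as the floor, corresponded to 0.281 to 0.349 counts per 1e+06 counts (CPM), which covers counting error only. All 10 genes passed the filter on low counts. Of the 11561 genes tested, 55.4% passed the threshold between the groups, an adjusted p under 0.05 in edgeR's quasi-likelihood test, 27% higher and 28.4% lower with C2S. Higher genes were 48.8% of those calls, but 38.3% with library sizes alone as the scaling and 36% with limma on log2(TPM + 1). Markers of macrophages summed to 7010 to 7280 TPM with C2S and 6820 to 7140 TPM in PM_control. All 10 had counts and 9 passed the filter on low counts. The lists for fibroblasts, epithelium, endothelium, lymphocytes and neutrophils summed to at most 5.51 TPM each. The endothelial list had 2.93 to 5.51 TPM with C2S and 0.73 to 1.41 TPM in PM_control, and all 5 of its markers had counts. The lymphocyte list had 1.28 to 2.55 TPM with C2S and 0 to 0.38 TPM in PM_control, from 2 of its 6 markers, with Cd3e, Ms4a1 and Ncr1 among those at 0 in every library. The part of these 2 lists in the results was not tested. The neutrophil list, with counts for 2 of 5 markers and S100a9, Camp and Elane at 0, overlapped between the groups at 0.69 to 3.85 TPM with C2S and 0 to 3.7 TPM in PM_control. The fibroblast and epithelial lists reached at most 0.21 and 0.14 TPM with C2S and were at 0 in PM_control.

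The promoters of these genes were searched for the C/EBP-ATF response element, the composite site that ATF4 binds together with a C/EBP factor, written TGATGNAA, on both strands. The window ran from 250 bases before to 50 after each RefSeq start (GRCm38.p6). Of the 9 members with a window, 4 held a match (Atf3, Chac1, Nupr1 and Trib3), against 4.51% of the 27025 genes with one. In Atf3, Chac1 and Nupr1 the match was TTGCATCA, the same 8 bases read on the other strand, and in Trib3 it was TTACATCA. The palindromic cyclic AMP response element, TGACGTCA, was in 1 member, Ppp1r15a, and in 2.03% of genes. The endoplasmic reticulum stress element, searched by its consensus on both strands, was in none of the 9 windows and in 0.137% of genes. None of the 3 motifs overlaps another in these windows, and a match is a description of letters, not of binding. The sequences show where the matches lie, with the matched bases in capitals. For Atf3 (chr1:191183341-191183583, minus strand), Chac1 (chr2:119350992-119351228, plus strand) and Ppp1r15a (chr7:45526269-45526518, minus strand) they are the upstream bases that lie outside every GENCODE exon of the gene. For Nupr1 (chr7:126625562-126625591, minus strand) and Trib3 (chr2:152344028-152344057, minus strand) 30 bases around the match are given, since the Nupr1 match lies within an exon annotated by GENCODE and the Trib3 match just after the RefSeq start.
Atf3: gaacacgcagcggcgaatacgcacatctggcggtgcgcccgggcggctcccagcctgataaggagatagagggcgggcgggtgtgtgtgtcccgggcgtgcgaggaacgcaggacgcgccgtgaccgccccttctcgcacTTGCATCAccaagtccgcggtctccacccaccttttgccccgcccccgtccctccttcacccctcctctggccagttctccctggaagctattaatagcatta
Chac1: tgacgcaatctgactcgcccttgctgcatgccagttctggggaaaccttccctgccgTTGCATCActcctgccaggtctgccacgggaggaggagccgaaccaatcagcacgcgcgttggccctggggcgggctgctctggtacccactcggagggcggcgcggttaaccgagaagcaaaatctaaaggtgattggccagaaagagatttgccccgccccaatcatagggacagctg
Ppp1r15a: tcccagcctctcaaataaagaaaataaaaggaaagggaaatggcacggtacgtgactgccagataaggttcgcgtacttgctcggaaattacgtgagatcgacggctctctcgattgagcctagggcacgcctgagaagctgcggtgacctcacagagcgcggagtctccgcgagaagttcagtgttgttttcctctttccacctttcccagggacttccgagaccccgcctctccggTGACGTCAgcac
Nupr1: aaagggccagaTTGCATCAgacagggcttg
Trib3: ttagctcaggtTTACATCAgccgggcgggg
The matches in Atf3 and Nupr1 began 110 bases before the RefSeq start and that in Chac1 193 bases before it. For Nupr1, the GENCODE transcript Nupr1-201, whose leader is used below, starts at 126625676 on the minus strand. The Nupr1 match therefore lies after the start of that transcript. The Ppp1r15a match began 12 bases before the RefSeq start.

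Atf4 RNA was 4.08 times as abundant with C2S, that of Ddit3 26.1 times and that of Atf3 19.2 times, while Cebpg did not pass the threshold. In bulk RNA, fewer cells of a type and less RNA per cell cannot be told apart. Atf4 (ENSMUSG00000042406, chromosome 15, 80255184 to 80257541) encodes the central activator of the response. It had 574, 598 and 622 CPM with C2S, against 140, 159 and 141 CPM in PM_control, where CPM is scaled by the TMM method. The groups did not overlap, and the log2 fold change was 2.03 ± 0.07 (SE). Ddit3 (ENSMUSG00000025408, chromosome 10, 127290774 to 127296288) encodes CHOP, a C/EBP relative tied to cell death under lasting stress. Its level was 152, 144 and 151 CPM with C2S, against 4.86, 5.66 and 6.61 CPM in PM_control. All 3 C2S libraries lay far above every PM_control library, and the log2 fold change was 4.71 ± 0.10. A second annotated gene of the same symbol, not used here, overlaps 6.13% of the exons of Ddit3.

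Atf3 and Atf5 encode further ATF factors. Atf3 (ENSMUSG00000026628, chromosome 1, 191170296 to 191218039), a stress-induced factor that mostly represses, had 237, 238 and 229 CPM with C2S, against 10.2, 12.8 and 13.5 CPM in PM_control. Its log2 fold change was 4.27 ± 0.09 and the groups did not overlap. Atf5 (ENSMUSG00000038539, chromosome 7, 44812256 to 44816658), which responds to stress of proteins in mitochondria and cytosol, had 73.5, 77.2 and 74.7 CPM with C2S, against 25.8, 28.1 and 29.6 CPM in PM_control. That log2 fold change of 1.43 ± 0.08 was the smallest among the 8 members that passed the threshold, and the groups did not overlap. Cebpg (ENSMUSG00000056216, chromosome 7, 35046422 to 35056573), a C/EBP protein that pairs with ATF4, had 40.5, 35.6 and 35.1 CPM with C2S, against 37.7, 37.2 and 42.8 CPM in PM_control. The groups overlapped, and the log2 fold change was -0.08 ± 0.09. Its sign turned with limma on log2(TPM + 1) and once the trend over GC content was removed, and it passed the threshold under none of the settings tried.

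Among the co-regulator and feedback genes, Trib3 had the largest difference of the 10. Nupr1 (ENSMUSG00000030717, chromosome 7, 126623249 to 126630861), a small stress-induced chromatin protein, had 25, 25.4 and 26.6 CPM with C2S, against 3.21, 3.03 and 3.88 CPM in PM_control. The ratio of means was 7.61 and the log2 fold change 2.93 ± 0.16. Trib3 (ENSMUSG00000032715, chromosome 2, 152337422 to 152344032) encodes a pseudokinase that binds ATF4, CHOP and AKT and restrains them. It had 134, 135 and 136 CPM with C2S, against 2.84, 1.52 and 2.31 CPM in PM_control, and the 3 C2S libraries were nearly alike. The log2 fold change was 5.90 ± 0.13, and the denominator rests on 31, 15 and 22 counts. Chac1 (ENSMUSG00000027313, chromosome 2, 119351229 to 119354381), a cyclotransferase that breaks down glutathione, had 47.2, 24.9 and 36.9 CPM with C2S, against 1.65, 1.62 and 1.05 CPM in PM_control. The C2S libraries spread more for Chac1 than for any other member, with a coefficient of variation of 30.4% on the TPM scale, against 1.01% for Trib3. Even so the lowest C2S value stood well above the PM_control values, which rest on 18, 16 and 10 counts, and the log2 fold change was 4.64 ± 0.26.

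The 2 phosphatase subunits differed in their response, Ppp1r15a being 20.9 times as abundant with C2S while Ppp1r15b did not pass the threshold. Ppp1r15a (ENSMUSG00000040435, chromosome 7, 45522916 to 45526268) encodes GADD34, the induced partner of protein phosphatase 1 for eIF2α, and Ppp1r15b (ENSMUSG00000046062, chromosome 1, 133131143 to 133139783) encodes CReP, the constitutive one. Ppp1r15a had 255, 224 and 240 CPM with C2S, against 12.9, 10.4 and 11 CPM in PM_control, a log2 fold change of 4.38 ± 0.09. Ppp1r15b had 222, 231 and 224 CPM with C2S, against 230, 224 and 232 CPM in PM_control. The groups overlapped in CPM and the log2 fold change was -0.02 ± 0.06. In TPM, which carries a length and another scaling, Ppp1r15b was at 59.5, 62.7 and 59.4 with C2S, against 67.5, 64.3 and 66.6 in PM_control, all 3 C2S values below the PM_control values. The exons of Ppp1r15b overlap Gm26616 over 11.4% of their length and the sources used here do not give strandedness, so its value is uncertain. The TPM ratio of Ppp1r15a to Ppp1r15b was 2.91, 2.93 and 3.38 with C2S, against 0.279, 0.18 and 0.12 in PM_control, so the induced subunit had the higher level with C2S and the constitutive one in PM_control.

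**Figure D1:**
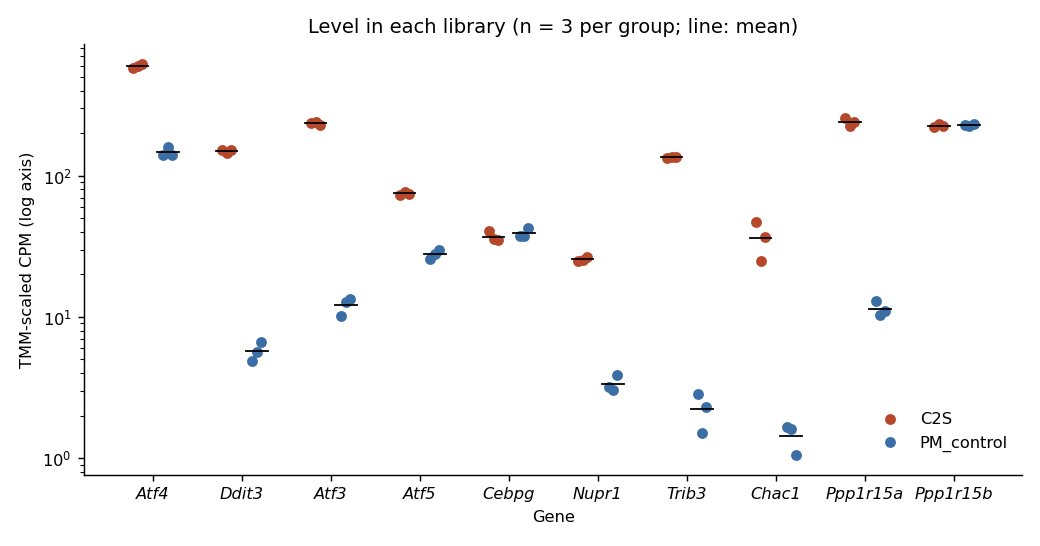
TMM-scaled CPM (log axis) of the 10 genes in each library, with 3 points per group and a line at the mean, C2S left of PM_control for each gene. The groups stand apart for 8 genes, while those of Cebpg and Ppp1r15b overlap, and Chac1 has the widest spread with C2S, from 24.9 to 47.2 CPM.

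In all, 8 of the 10 members passed the threshold as higher with C2S, where 27% of all tested genes were higher, and the other 2 did not pass. The same 8 were at least 2-fold higher, as were 7.34% of tested genes, and 5 of them (Ddit3, Atf3, Trib3, Chac1 and Ppp1r15a) at least 8-fold higher, as were 1.91%. Groups did not overlap in CPM, with C2S higher, for 8 members and for 29.8% of tested genes, and for 61.1% of tested genes in either direction. Because this same contrast was known when the members were chosen, nothing is read from these counts. The median log2 fold change was 3.60 over the members and 0.00 over all tested genes.

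**Figure D2:**
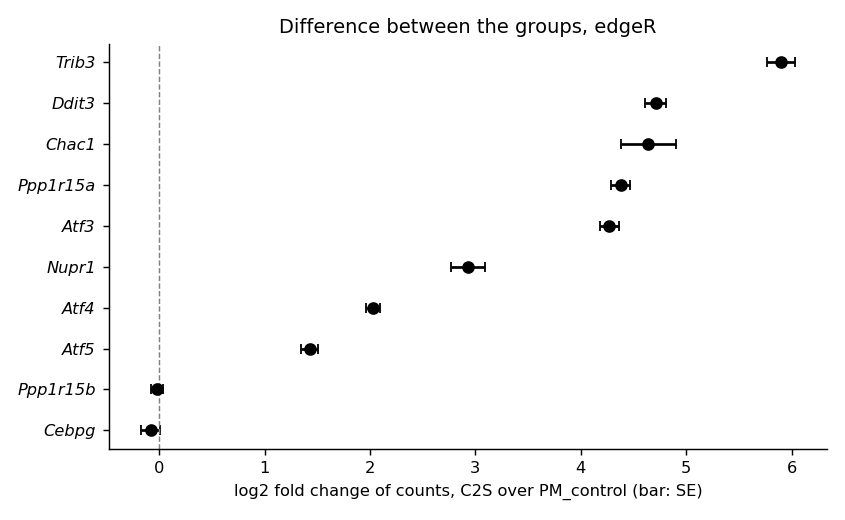
Log2 fold change of counts, C2S over PM_control, for the 10 genes, sorted by size, with bars of 1 SE from edgeR. Values run from -0.08 for Cebpg to 5.90 for Trib3, with Atf5, Atf4 and Nupr1 between 1.43 and 2.93.

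Levels between genes can be compared in TPM, which is scaled for transcript length. With C2S, Atf4 was the highest member at 578 ± 21.9 TPM (SD, n = 3), followed by Ddit3 at 341 ± 12.4 TPM. In PM_control, Atf4 was likewise the highest at 152 ± 10.3 TPM, but Ppp1r15b came next at 66.1 ± 1.66 TPM and Ddit3 had rank 5 at 14.3 ± 2.4 TPM. Ddit3 thus stood at 0.590 ± 0.0398 of the Atf4 level with C2S and at 0.0937 ± 0.0171 of it in PM_control, whereas Atf5 stood at 0.2 ± 0.0288 of it with C2S and 0.3 ± 0.0113 of it in PM_control. With C2S, 3 pairs of neighbours in the order overlapped in their values: Atf3 and Ppp1r15a at 193 and 186 TPM, Atf5 and Trib3 at 116 and 113 TPM, and Nupr1 and Ppp1r15b at 61.9 and 60.5 TPM. Chac1, at 37.3 ± 11.3 TPM, and Cebpg, at 19.2 ± 3.58 TPM, closed the order and did not overlap. In PM_control, Ddit3, Ppp1r15a, Atf3 and Nupr1 formed a run of overlapping neighbours between 14.3 and 8.39 TPM, and Trib3 (2.58 ± 1.68 TPM) and Chac1 (1.59 ± 0.386 TPM) overlapped at the bottom. Among tested genes ranked by TPM, Ddit3 lay at percentile 96.1 with C2S and 38.1 in PM_control, and Trib3 at 87.9 with C2S and 11.3 in PM_control. Together the 10 genes took 0.168%, 0.171% and 0.172% of all TPM with C2S, against 0.0328%, 0.0344% and 0.0325% in PM_control, and Atf4 made up 32.9% to 34.6% of that sum with C2S and 44.9% to 47.8% in PM_control.

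**Figure D3:**
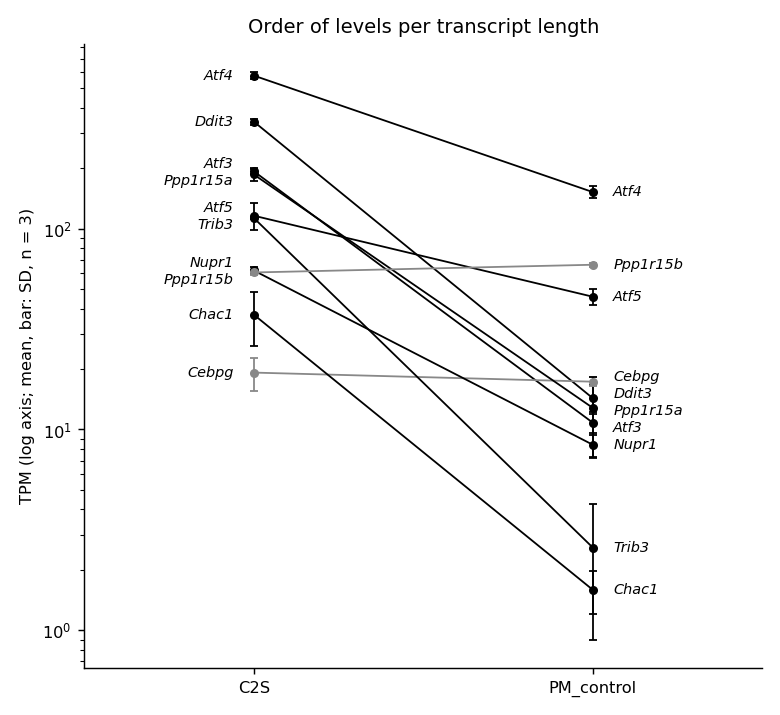
Mean TPM (log axis, bars of 1 SD, n = 3) of the 10 genes with C2S on the left and in PM_control on the right, joined by lines, black for the 8 genes past the threshold and grey for Cebpg and Ppp1r15b. Cebpg has rank 10 with C2S at 19.2 TPM and rank 4 in PM_control at 17.3 TPM.

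The deposited tables also give a mean transcript length per gene, weighted by the estimated abundance of its isoforms, a measure on which the choice of members did not rest. Of the members, 7 had a length that differed between libraries. Atf4 and Chac1 have 1 transcript each in the tables, and Atf3 was at 1984 bases, its Atf3-201 transcript, in every library. The weighted length of Cebpg was 2720, 3082 and 3284 bases with C2S, against 3745, 3590 and 3775 bases in PM_control. All 3 C2S values were the shorter, between the 914 bases of Cebpg-201 and the 4709 bases of Cebpg-202. The log2 difference was -0.29 ± 0.08 (limma, adjusted p = 0.354 over the 9029 genes with varying length, of which 0.233% passed), with adjusted p-values of 0.27 to 0.589 over its alternatives. Of the 7 members, 1 had an unadjusted p under 0.05 (Cebpg, 0.0137) and 0 passed by limma after adjustment, either with or without its trend and robust options. These lengths enter the TPM values. Ppp1r15a had 2335, 2007 and 1937 bases with C2S, against 1319, 1624 and 2333 bases in PM_control, and its TPM in PM_control ran over 18.8, 11.6 and 8.02 where its CPM ran over 12.9, 10.4 and 11. Trib3 was at 1946, 1979 and 1924 bases with C2S, against 1239, 2026 and 2026 bases in PM_control, on 31, 15 and 22 counts there. For Cebpg, mean TPM with C2S was 1.11 times that in PM_control, while mean CPM was 0.944 times.

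**Figure D4:**
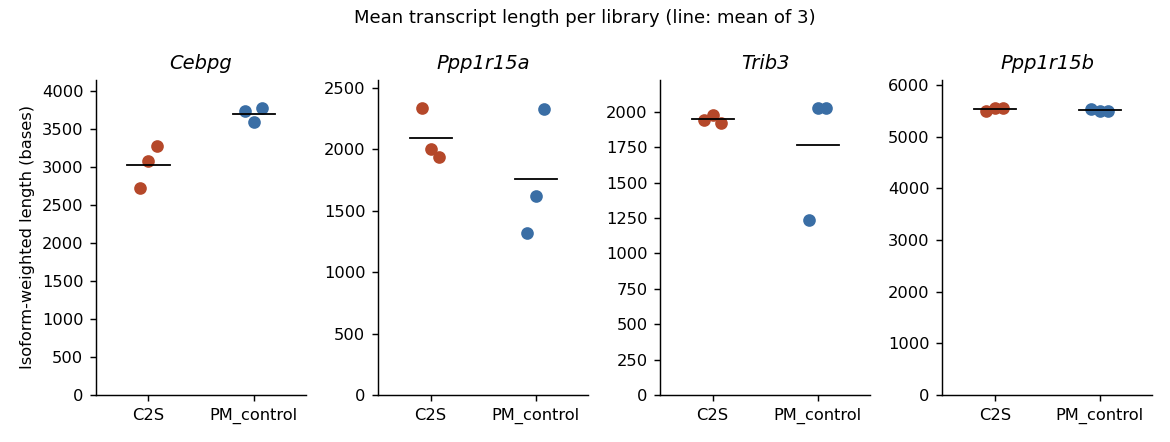
Isoform-weighted length in bases of 4 genes in each library, C2S left of PM_control, with a line at the mean of 3. Cebpg is shorter in all 3 C2S libraries, Ppp1r15a and Trib3 spread widely in PM_control, and Ppp1r15b lies between 5499 and 5551 bases throughout.

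Upstream start codons, the feature through which phosphorylated eIF2α favours some messengers, were counted in the annotated 5′ leader of 1 principal GENCODE transcript per gene. Of the 10 members, 8 had at least 1 upstream ATG, against 50% of the 10374 tested genes with a leader, and the median leader was 267.5 bases in members and 166 bases over those genes. Atf4 had 3, opening frames of 36, 3 and 59 codons, and the last ran past the start of the coding sequence in another frame. Atf5 had 2, of 3 and 58 codons, and the second overlapped its coding sequence in the same way, a layout that 16.4% of tested genes shared in some form. Ddit3 had 2 upstream ATGs, with 34 and 31 codons before the stop, Ppp1r15a had 3 with 45, 34 and 26, and Ppp1r15b had 3 with 2, 8 and 51. Atf3, Cebpg and Nupr1 had 1 each, and Trib3 and Chac1 had a leader with no ATG. Both members that did not pass the threshold thus carry upstream ATGs, and RNA levels say nothing of how often any of these frames was translated.

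By root mean square difference of centred log2 CPM over the 6 libraries, a description with no test, the 3 genes most like Atf4 among 8249 were Siah2, a ubiquitin ligase (0.074), Polr2a, the large subunit of RNA polymerase II (0.089), and Tle3, a corepressor (0.094). Siah2 had 69.4, 79 and 74.8 CPM with C2S, against 18.3, 21.4 and 18.8 CPM in PM_control. For Ddit3 they were Abtb2 (0.189) and the members Atf3 (0.198) and Ppp1r15a (0.236). The measure follows the same difference between the groups that was known when the members were chosen. Nothing is therefore read from members lying near each other. For Ppp1r15a they were Nr4a1, an orphan nuclear receptor (0.078), Abtb2 (0.158) and Atf3 (0.221). Nr4a1 had 107, 102 and 101 CPM with C2S, against 5.41, 4.85 and 4.83 CPM in PM_control. The log2 fold changes of Siah2 and Nr4a1 were 1.93 and 4.35.

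Upstream of ATF4, Eif2ak2 was the kinase gene of 4 that passed the threshold, and the largest difference in the list was that of Impact. Of 11 genes for these kinases and their regulators, 3 rose and 4 fell (median log2 fold change -0.05, against 0.00 over all tested genes), but 1 rose on log2(TPM + 1). Over all tested genes 27% rose and 28.4% fell, so the share that rose in this list was that of the background. Eif2ak3, which encodes PERK, the sensor in the endoplasmic reticulum, had 40 ± 5.2 CPM with C2S and 35 ± 0.592 CPM in PM_control (SD, n = 3; log2 fold change 0.19 ± 0.10; edgeR, adjusted p = 0.115), a call that passed without C2S replicate 1 (0.30; edgeR, adjusted p = 0.0166; range over its alternatives 0.0166 to 0.659). Eif2ak4, which encodes GCN2, the sensor of uncharged tRNA, was at 0.11 ± 0.08 (edgeR, adjusted p = 0.268). Eif2ak1, the heme-regulated kinase, was at -0.14 ± 0.07 (edgeR, adjusted p = 0.0809) and passed as lower with library sizes alone (edgeR, adjusted p = 0.00711; range over its alternatives 0.00711 to 0.22). It also passed as lower on log2(TPM + 1) (limma, adjusted p = 0.0417) and log2(TPM + 0.1) (limma, adjusted p = 0.0415). Eif2ak2, which encodes PKR, fell to 44.1 ± 3.4 CPM with C2S, against 56.4 ± 3.43 CPM in PM_control (edgeR, adjusted p = 0.00223). Impact, whose product keeps GCN2 inactive, rose to 78.3 ± 6.36 CPM with C2S, against 18.5 ± 0.182 CPM in PM_control (2.08 ± 0.09; edgeR, adjusted p = 7.94e-12), and Gcn1, a GCN2 activator, rose by 0.33 ± 0.06 on the log2 scale. Nck1, an adaptor protein, fell by 1.45 ± 0.17, and Ppp1cb, a catalytic subunit of protein phosphatase 1, fell by 0.37 ± 0.08, although 17.5% of its exons overlap Gm43312. The calls of Gcn1 on log2(TPM + 1) (limma, adjusted p = 0.0863) and of Ppp1cb with the GC trend removed (edgeR, adjusted p = 0.133) were lost, against ranges of 2.7e-08 to 0.0863 and 5.65e-06 to 0.133 over their alternatives.

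Of 14 genes for eIF2, its exchange factor eIF2B and start site selection, 6 rose and 3 fell (median 0.08), where 27% of all tested genes rose and 28.4% fell, but 2 rose with library sizes alone and 2 on log2(TPM + 1). Eif1, a factor that sets the stringency of start codon choice, rose to 636 ± 10.2 CPM with C2S, against 266 ± 10.7 CPM in PM_control (1.26 ± 0.06; edgeR, adjusted p = 1.56e-11). Eif5, the GTPase activator of eIF2, rose by 1.12 ± 0.06 on the log2 scale. Eif2b4, a subunit of eIF2B, fell by 0.64 ± 0.08. Eif2s1, which encodes eIF2α itself, fell by 0.29 ± 0.06 (edgeR, adjusted p = 0.00108), and that call was lost with the GC trend removed (-0.04; edgeR, adjusted p = 0.583, the highest over its alternatives).

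Of 18 tested relatives among the C/EBP, ATF and CREB factors, 8 rose and 4 fell (median 0.18), where 27% of all tested genes rose and 28.4% fell. Jdp2, a repressor that pairs with ATF3 relatives, rose to 68.3 ± 2.66 CPM with C2S, against 35.5 ± 0.768 CPM in PM_control (0.94 ± 0.08; edgeR, adjusted p = 3.57e-08). Atf6, which encodes the membrane-bound factor of another arm of the unfolded protein response, rose by 0.64 ± 0.06. Creb3l2, a related membrane-bound factor, fell by 1.2 ± 0.13, and Creb1 fell by 0.65 ± 0.09. Creb5, at 1.84 ± 0.22, and Crem, at 1.11 ± 0.22, rose more than Jdp2 or Atf6, from lower counts. None of these genes moved as far as Atf3 or Ddit3.

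Genes known as ATF4 targets rose in large part. Of 19 tested targets of amino acid supply, 16 rose and 3 did not pass (median 0.91), where 27% of all tested genes rose. Over the alternatives 12 to 16 rose. The 3 that did not pass were Psat1 at 0.01, Shmt2 at 0.00 and Aldh18a1 at -0.02 on the log2 scale. Slc3a2, the heavy chain of several amino acid transporters, rose to 1050 ± 23.3 CPM with C2S, against 224 ± 17.9 CPM in PM_control (2.23 ± 0.07; edgeR, adjusted p = 7.32e-14). Slc1a4, a transporter of neutral amino acids, rose by 3.51 ± 0.11, and Asns, asparagine synthetase, by 0.91 ± 0.08 (edgeR, adjusted p = 4.26e-08). Of 13 genes of tRNA charging, 8 rose and 5 did not pass (median 0.25), against the same 27% over all genes, with 5 rising on log2(TPM + 1). Nars, an asparaginyl-tRNA synthetase, rose by 0.61 ± 0.06, and Aars by 0.74 ± 0.06 with 14.3% of its exons shared with Exosc6 and so uncertain. Of 11 targets of signalling and secretion, 7 had enough counts to be tested. All 7 rose (median 3.42), again beside 27% of all genes. Gdf15, 1 of them, had 19, 12 and 16 counts with C2S and 1, 0 and 1 in PM_control. It passed the low-count filter through the C2S group alone, so nothing is read from its call. The count of 7 and the median include Gdf15, whose log2 fold change of 4.45 lies above that median. The others ran from 0.53 for Eif4ebp1 and Gtpbp2 to 6.07 for Vegfa. Sesn2, a sensor protein that restrains mTORC1, had 264 ± 10.8 CPM with C2S and 24.5 ± 2.71 CPM in PM_control (3.42 ± 0.08; edgeR, adjusted p = 2.47e-15). Vegfa, a growth factor, rose too. The element TGATGNAA was in the window of 4 of 16 targets of amino acid supply with one, Asns and Slc1a4 among them. In tRNA charging it was in 5 of 9, of which Aars, Gars and Yars rose while Iars and Tars did not pass. It was in 3 of 10 of signalling and secretion, none of which was a tested gene. The share over all genes with a window was 4.51%, and a link between the element and these differences was not tested.

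Of 6 tested genes tied to CHOP in oxidation and death, 4 rose and 2 did not pass (median 0.68), where 27% of all tested genes rose. Bcl2l11, which encodes the death-promoting protein BIM, rose to 174 ± 12.2 CPM with C2S, against 21.6 ± 0.815 CPM in PM_control (3.01 ± 0.08; edgeR, adjusted p = 1.62e-14), and Pmaip1, which encodes NOXA, rose by 2.08 ± 0.10. Ero1l rose by 0.77 ± 0.08 and Bbc3 by 0.58 ± 0.15, although the groups overlapped for Bbc3 in CPM and in TPM. Tnfrsf10b, at -0.35, and Bcl2, at -0.10, did not pass. Of 18 genes of the IRE1 and ATF6 arms, 9 rose and 1 fell (median 0.16), with 5 rising on log2(TPM + 1). Over all tested genes 27% rose and 28.4% fell, and 55.4% passed in either direction. The share of this list that passed in either direction was near the background, but its calls were mostly rises. Hspa5, the chaperone BiP, had 1200 ± 99.1 CPM with C2S and 983 ± 12.4 CPM in PM_control (0.29 ± 0.07; edgeR, adjusted p = 0.00149), past the threshold except on the log2 TPM scales (0.18; limma, adjusted p = 0.0712 with a pseudocount of 1, the highest over its alternatives). Dnajb9, a chaperone partner of BiP, and Herpud1, of protein disposal, had larger differences (2.96 ± 0.13 and 2.15 ± 0.08), and Xbp1, whose RNA is spliced by IRE1, was the gene of the list that fell (-0.95 ± 0.06; edgeR, adjusted p = 1.15e-09).

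The nearest relatives of the feedback genes had smaller differences. Among 5 tested genes around Trib3, Trib1 was at 0.20 on the log2 scale and did not pass, and Akt2 rose by 0.26 ± 0.07. The call of Akt2 was lost on log2(TPM + 1) (limma, adjusted p = 0.135, the highest over its alternatives). Among 6 tested genes of glutathione turnover around Chac1, Chac2, its close relative, was at -0.12 and did not pass. Oplah, which recycles the oxoproline that CHAC1 releases, had 5.86 ± 1.4 CPM with C2S and 1.64 ± 0.282 CPM in PM_control (1.83 ± 0.29; edgeR, adjusted p = 5.26e-05; on log2(TPM + 0.1) limma, adjusted p = 0.0539, the highest over its alternatives), and Gclm, a subunit of the enzyme of glutathione synthesis, rose by 0.28 ± 0.06. Gclc, its catalytic partner, fell by 0.19 ± 0.06 (edgeR, adjusted p = 0.0211), a call lost without C2S replicate 1 (edgeR, adjusted p = 0.0789), without C2S replicate 3 (0.0526) and without PM_control replicate 2 (0.081, the highest over its alternatives). Among 8 genes of mitochondrial stress signalling to eIF2, 2 rose and 2 fell (median 0.02), beside 27% and 28.4% of all tested genes. Lonp1, a matrix protease, rose by 0.47 ± 0.06, while Yme1l1 and Oma1, proteases of the inner membrane, fell by 0.68 ± 0.08 and 0.54 ± 0.16. The other riser, Hspa9, was at 0.15 ± 0.06 (edgeR, adjusted p = 0.0433) and missed the threshold without C2S replicate 1 (0.106), C2S replicate 2 (0.093), PM_control replicate 1 (0.164), PM_control replicate 2 (0.0664) or PM_control replicate 3 (0.0746), with a range of 0.000363 to 0.526 over its alternatives.

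**Figure D5:**
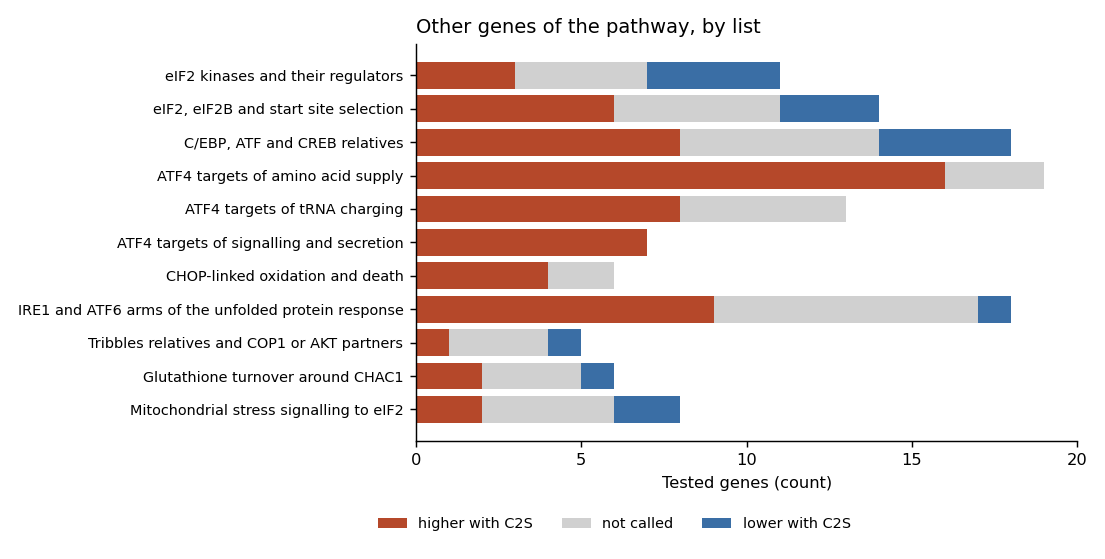
Tested genes of 11 lists around the stress regulators (bars, counts of genes), split into those higher with C2S, those not past the threshold and those lower with C2S. The 3 lists of ATF4 targets and the list tied to CHOP hold 16, 8, 7 and 4 higher genes and no lower one, while the upstream kinase and eIF2 lists hold genes of both directions. The 7 include Gdf15, from whose call nothing is read.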

How the data were processed

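RNA of RAW264.7 cells was sequenced in 3 C2S and 3 PM_control libraries, grouped by sample titles and treatment labels. Per the series design text in the labels, the authors trimmed reads with fastp, aligned them to mm10 with STAR and counted them with RSEM. Tool versions, the annotation and the strand setting were not given in the sources used here. Per the file headers, the authors deposited expected counts, TPM, FPKM (not used) and transcript lengths per gene. The deposited lengths are other values than counts, in bases, and none varied among the 33274 genes with 1 transcript. Symbols came from a table of gene IDs and symbols (52403 of 52636 IDs matched) and coordinates from GENCODE M21 (GRCm38).

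Expected counts were rounded. The filterByExpr function, with a count of at least 10 and a total of at least 15, left 11561 genes, which were tested with edgeR 4.0.16 (quasi-likelihood F test, TMM, group as the only term, Benjamini-Hochberg at 0.05; limma 3.58.1, DESeq2 1.42.0, R 4.3.3). SEs of edgeR were obtained by dividing the absolute log2 fold change by the root of F. Lengths were compared with limma on the log2 scale. Genes with at least 10% of exon length under another gene are called uncertain. No member had non-whole counts. Replicates of a group were no duplicates (chi-square per degree of freedom 4.3 to 6.46).

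The members, lists, tests and alternatives were chosen with earlier results of these data known. Named genes were the 10 members, 7 fixed genes (the 4 eIF2α kinases, Asns, Hspa5 and Xbp1) and others picked by rule. Per list and direction, the rule took up to 2 called genes with the smallest adjusted p and groups that did not overlap. Trib1, Chac2, Gdf15, Eif4ebp1, Gtpbp2, Gars, Yars, Iars and Tars were named after their values were seen. So were Ero1l, Bbc3, Tnfrsf10b, Bcl2, Creb5, Crem, Psat1, Shmt2 and Aldh18a1. Some genes that this rule names are not reported here. Both fits were run on simulated data. The simulated counts had a dispersion common to all genes, so that check does not cover genes that differ in dispersion.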

Additional observations from a re-analysis of the deposited data

How the results depend on the processing

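The 8 members that passed the threshold did so, as higher, under each of the 17 alternatives, which were RLE, upper quartile and plain library size scaling, DESeq2, limma-voom, limma on log2(TPM + 1) and log2(TPM + 0.1) above a mean of 1 TPM, no low-count filter, the replicate block, removal of the GC trend, leaving out genes of non-whole counts, and leaving out each library. Their log2 fold changes ranged over 1.92 to 2.09 for Atf4, 4.50 to 4.82 for Ddit3, 5.09 to 6.13 for Trib3 and 3.85 to 4.85 for Chac1. Cebpg turned to 0.13 with either TPM pseudocount and to 0.03 with the GC trend removed, and Ppp1r15b turned to 0.03 with the GC trend removed. The cause was not tested. The median log2 fold change of all genes was 0.10 without the low-count filter and -0.10 on log2(TPM + 0.1). Genes called higher numbered 3123, but 1726 on log2(TPM + 1) and 1712 on log2(TPM + 0.1), and the cause was not tested. Of the 125 list genes tested, 82 were called, against 63 to 84 over the alternatives. Of all 11561 tested genes 55.4% were called, and nothing is read from the list total. The counts of the Tribbles, glutathione and mitochondrial lists, of 1 or 2 genes a direction, moved by at most 1 gene. Lower genes numbered up to 2 of tRNA charging under 4 alternatives, 2 of the IRE1 and ATF6 arms under 6, and 1 of the list tied to CHOP without C2S replicate 2, while the GC correction left 2 lower kinase list genes and 1 lower eIF2 list gene. Length differences near 0 changed sign when libraries were left out, with ranges of -0.05 to 0.07 for Atf5, -0.06 to 0.30 for Trib3 and -0.01 to 0.03 for Ddit3.

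The replicate numbers carry no stated pairing. Same-numbered libraries had correlations of deviations of -0.0112, 0.0686 and 0.0344, and C2S replicate 1 correlated best with PM_control replicate 3 (0.0819). With the replicate block 6489 of the 11561 tested genes were called, 3192 higher and 3297 lower, against 6405 without it. Beside that share of all genes, 8 of the 10 members and 84 of the 125 list genes were called.

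Depth limits the PM_control levels of Trib3 and Chac1, at 10 to 31 counts a library.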
